A study of Mus musculus with 3 samples.

Results

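Motor genes of the kinesin and dynein families were examined in a table of transcript models from mouse testis. A gene was taken by its symbol, which had to begin with Kif and a digit or the letter c, or with Dnah, Dnai, Dnal or Dync. The rule found 65 of 23135 gene symbols and 150 of 50081 models: 42 kinesin genes with 94 models, 16 axonemal dynein genes with 33 models and 7 cytoplasmic dynein genes with 23 models. The symbols also cover dynein intermediate and light chains, which are not motors themselves, and the pseudogene Kif4-ps. The series has 3 libraries, 1 per group, all from testes of wild-type C57BL/6J mice. Capped 5′ ends were sequenced by CAGE at 10.5 dpp (days after birth) and in the adult, and 3′ ends next to the poly(A) tail by PAS-Seq in the adult. Whether testes were pooled was not stated. It gives no value per library, no read count and no expression level, so the depth is unknown, the ages cannot be compared and no test over samples was possible. Every count below describes models of 1 table, and Clopper-Pearson 95% intervals cover counting error only.

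Kinesins carry loads along microtubules or take microtubules apart, most of them moving towards the plus end. They build the spindle in dividing germ cells and move cargo along the growing flagellum. Axonemal dyneins form the outer and inner arms that bend the sperm tail and motile cilia, and their heavy chains hold the ATPase ring. Cytoplasmic dynein 1 is the main minus-end motor of the cell, and cytoplasmic dynein 2 returns trains of intraflagellar transport to the base of the cilium.

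Models were RefSeq-derived, with a gene symbol and a RefSeq accession, or CUFF models, whose identifiers start with CUFF and which had a gene symbol or none. A further column held a code, which was NM or XX in every model of the motor genes. No source used here defines the codes. Marker genes were looked up by code: all 4 markers of liver, heart, gut and kidney had XX alone, as did 4 of 6 markers of other ciliated or neuronal tissue. All 9 germ cell markers, 4 Sertoli markers and 3 Leydig markers had another code. Since the codes are undefined, a code is given below as a label of the table and not as a level of RNA. Of the 65 motor genes, 64 had a RefSeq-derived model, 42 had a CUFF model, and none was named as a piRNA locus.

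A code other than XX was carried by 58 of 65 motor genes (89.2%, interval 79.1 to 95.6%), against 62.3% of the 22426 genes with a RefSeq-derived model. The count was 39 of 42 for kinesins (interval 80.5 to 98.5%), 12 of 16 for axonemal dyneins (47.6 to 92.7%) and 7 of 7 for cytoplasmic dyneins (59.0 to 100%). The 7 motor genes with XX alone were the heavy chains Dnahc5, Dnahc9, Dnahc11 and Dnahc12 and the kinesins Kif5a, Kif12 and Kifc2. Motor genes have many exons, and the share with a code other than XX also differed with exon number. Genes were grouped by the exons of RefSeq-derived models, so Dnahc12, with XX alone and no such model, is in none of the groups. Among genes of 20 to 39 exons it was 20 of 21 motor genes (95.2%) and 81.7% of 2050 other genes, and among genes of 10 to 19 exons 19 of 21 (90.5%) and 78.6% of 5286. Among genes of fewer than 10 exons it was 7 of 7 and 53.3% of 14715. Among genes of at least 40 exons it was 12 of 15 motor genes (80%) and 77.2% of 311 other genes, so the long motor genes lay near the other long genes. No test of these differences was made.

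**Figure D1:**
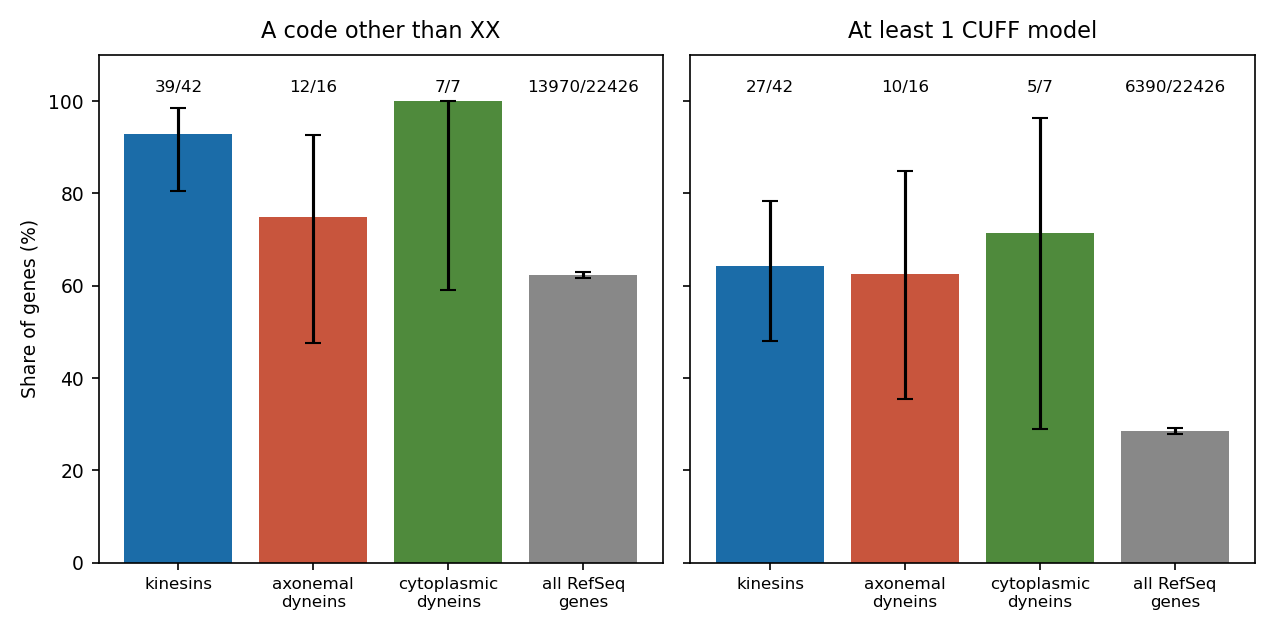
Share of genes, in percent, with a code other than XX (left) and with at least 1 CUFF model (right), for the motor classes and for all genes with a RefSeq-derived model. Bars are shares, whiskers are exact 95% intervals and the counts stand above; 39 of 42 kinesins and 12 of 16 axonemal dyneins had a code other than XX, against 62.3% of all genes.

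The outer arm dyneins were split by code within their heavy chains. Dnahc8 and Dnahc17, which are known as the outer arm heavy chains of sperm, carried NM. Dnahc5, Dnahc9 and Dnahc11, which are known as those of airway cilia, carried XX alone. The close paralogs Dnahc8 and Dnahc5 thus had different codes, as did Dnahc17 and its close paralogs Dnahc9 and Dnahc11. The other outer arm genes on the list, the intermediate chains Dnaic1 and Dnaic2 and the light chain Dnalc1, all carried NM. These 8 genes were chosen with the codes already known, so the split is a description.

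Reference promoters of these paralogs are shown because the code separates them. They are RefSeq windows of build GRCm38.p6, 250 bases before to 50 bases after the annotated start, and their coordinates do not match the mm9 positions of the table. The CUFF models began elsewhere: 2778 nt upstream of the RefSeq start in Dnahc8, 1503 nt upstream in Dnahc17, and at least 15363 nt downstream in Dnahc5 and Dnahc9. The windows therefore do not show the sequence at the starts of those CUFF models. Capitals mark a CCAAT box, found in the Dnahc9 window alone of these 5; the MYB, RFX, CRE and TATA letters that are spelled out with the shares over all promoters were found in none of the 5, on either strand.
Dnahc8, chr17:30626686-30626985, plus strand: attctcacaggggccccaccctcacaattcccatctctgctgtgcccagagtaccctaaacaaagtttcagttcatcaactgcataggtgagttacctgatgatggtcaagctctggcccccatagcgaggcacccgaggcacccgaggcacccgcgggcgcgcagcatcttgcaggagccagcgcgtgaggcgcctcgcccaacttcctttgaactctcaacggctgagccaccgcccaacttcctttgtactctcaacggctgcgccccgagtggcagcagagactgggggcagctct
Dnahc5, chr15:28203516-28203815, plus strand: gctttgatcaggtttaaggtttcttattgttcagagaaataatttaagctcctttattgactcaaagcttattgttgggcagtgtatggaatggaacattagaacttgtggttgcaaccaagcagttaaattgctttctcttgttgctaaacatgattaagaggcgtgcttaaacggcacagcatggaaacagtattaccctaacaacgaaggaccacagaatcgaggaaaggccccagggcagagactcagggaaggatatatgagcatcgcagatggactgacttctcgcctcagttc
Dnahc17, chr11:118129170-118129469, minus strand: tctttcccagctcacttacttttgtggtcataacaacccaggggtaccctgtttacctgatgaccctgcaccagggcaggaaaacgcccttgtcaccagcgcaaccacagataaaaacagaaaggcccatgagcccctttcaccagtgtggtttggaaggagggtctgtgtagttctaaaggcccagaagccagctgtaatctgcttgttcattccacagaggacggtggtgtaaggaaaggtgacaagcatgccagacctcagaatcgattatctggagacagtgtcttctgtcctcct
Dnahc9, chr11:66168502-66168801, minus strand: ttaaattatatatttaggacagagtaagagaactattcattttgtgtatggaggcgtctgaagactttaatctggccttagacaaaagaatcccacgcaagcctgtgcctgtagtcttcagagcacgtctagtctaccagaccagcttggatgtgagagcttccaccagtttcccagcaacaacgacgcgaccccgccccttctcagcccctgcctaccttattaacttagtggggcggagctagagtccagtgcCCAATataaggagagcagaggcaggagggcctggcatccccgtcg
Dnahc11, chr12:118198994-118199293, minus strand: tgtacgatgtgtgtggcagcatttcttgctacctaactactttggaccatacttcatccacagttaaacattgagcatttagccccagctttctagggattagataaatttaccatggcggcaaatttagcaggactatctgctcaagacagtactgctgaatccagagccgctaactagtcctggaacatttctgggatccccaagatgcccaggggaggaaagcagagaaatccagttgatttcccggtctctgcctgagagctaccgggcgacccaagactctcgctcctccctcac
In these windows, CpG dinucleotides numbered 16 for Dnahc8, 6 for Dnahc5, 4 for Dnahc17, 10 for Dnahc9 and 7 for Dnahc11. The numbers did not order the paralogs by their code.

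The CUFF models of the sperm heavy chains had upstream starts. Dnahc8 (chromosome 17, 30761103 to 31012209, plus strand, mm9) had 1 CUFF model of 93 exons and 14731 nt that began 2778 nt upstream of the RefSeq start, shared bases with RefSeq exons 2 to 93, and ended 48 nt before the RefSeq end. Dnahc17 (chromosome 11, 117883037 to 117992036, minus strand) had 2 CUFF models, of 80 and 81 exons, that both began 1503 nt upstream. They ended 1473 and 1779 nt before the RefSeq end and held 6 introns each that the RefSeq model lacks.

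The CUFF models of Dnahc9 and Dnahc5, coded XX, began inside the gene. Internal starts were not particular to that code: CUFF models of Dnahc2, Dnahc7b and Dync1h1, coded NM, also had them, as given below. For Dnahc12, also coded XX, there was no RefSeq model to compare. Dnahc9 (chromosome 11, 65644826 to 65982053, minus strand) had the most distinct starts of any motor gene, 5 starts and 1 end over 5 models. Its 4 CUFF models shared the RefSeq end exactly and began in introns 5, 33, 36 and 49 of a RefSeq model of 69 exons. They were 22860, 141364, 162483 and 240408 nt downstream of its start. They covered 91.3%, 50.5%, 47.4% and 30.4% of the RefSeq bases, and every intron in them was a RefSeq intron. In a dynein heavy chain the tail lies at the amino end and the ATPase ring towards the carboxyl end, so the last exons lie on the side of the ring. Whether any of these models is read as a protein was not examined. Dnahc5 (chromosome 15, 28133521 to 28401800, plus strand) had 1 CUFF model, which began 15363 nt downstream, in RefSeq exon 2, ended at the RefSeq end and covered 98.1% of the bases. Dnahc11 had its RefSeq model alone, with 82 exons and 14072 nt.

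Of the inner arm list, 7 of 10 genes were matched and 6 carried NM: the heavy chains Dnahc1, Dnahc2, Dnahc6, Dnahc7b and Dnahc10 and the light intermediate chain Dnali1. The remaining matched gene, Dnahc12, carried XX in 2 CUFF models and had no RefSeq-derived model. Its models had 16 exons and 2568 nt, and 25 exons and 5340 nt, and lay 100190 nt apart on chromosome 14. Both are far shorter than the other heavy chains of the table, whose longest models ran from 12521 to 15616 nt. No model was found under the symbols Dnahc3, Dnahc7a and Dnahc7c.

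Dnahc2 (chromosome 11, 69234310 to 69362804, minus strand) had 3 CUFF models of 83, 85 and 86 exons, all with the RefSeq end to within 1 nt. A pair of them began 2530 nt downstream, in intron 1, and the remaining one, of 86 exons, began 194 nt upstream. Dnahc7b had a CUFF model with the RefSeq start and end but 2 introns outside the RefSeq set, and another that began 59113 nt downstream, in intron 13. The CUFF model of Dnahc6 began 93 nt upstream and ended 7865 nt early, in intron 72 of 77 exons. Dnahc1 and Dnahc10 had 1 RefSeq model each, of 78 and 79 exons.

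All 5 axonemal intermediate and light chains carried NM. Dnaic1, Dnaic2 and Dnali1 had 1 model each. Dnalc1 had a CUFF model of 7 exons and 6570 nt that began 6071 nt downstream, in intron 1, and kept the end. Dnalc4 had a CUFF model of 6 exons that began 314 nt upstream and held 3 introns outside the RefSeq set of its 4-exon model, of which it covered 74.5%.

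All 7 cytoplasmic dynein genes carried NM. Dync1h1, the heavy chain of cytoplasmic dynein 1 (chromosome 12, 111839605 to 111905154, plus strand), had a CUFF model of 45 exons that ran from RefSeq exon 29 to 73 of 77. It began in intron 28, 32726 nt downstream, and covered 52.4% of 14398 nt. Dync2h1, the heavy chain of cytoplasmic dynein 2 (chromosome 9, 6928503 to 7184437, minus strand), had a CUFF model that began 7391 nt upstream, the furthest upstream start among the 60 motor models compared, and ended 880 nt early. Dync1i2, an intermediate chain, had the most models of any motor gene, 1 CUFF and 8 from RefSeq, with 2 starts and 2 ends. Dync1i1, the other intermediate chain, had 5 RefSeq models with 1 start and 1 end. The light intermediate chains differed in where the CUFF model stopped: that of Dync1li2 ended in intron 12 of 13 exons, 3611 nt early, with 35.1% of the RefSeq bases, and that of Dync1li1 ended 355 nt early in the last exon with 82.6%. Dync2li1 had 1 model.

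All 13 spindle kinesins on the list had a code other than XX, 12 of them in a RefSeq-derived model. The exception was Kif14, which acts in cytokinesis. Its CUFF model of 21 exons and 4116 nt was coded NM, whereas its CUFF models of 30 and 29 exons and its RefSeq model of 30 exons and 8770 nt were coded XX. The model coded NM began 1336 nt upstream, ended in intron 21, 27664 nt before the RefSeq end, and covered 39.03% of the RefSeq bases. This combination, XX in each RefSeq-derived model and another code in a CUFF model, was found in 148 of 22426 genes (0.66%).

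Other spindle kinesins also had CUFF models with early ends. The model of Kif4, the chromokinesin on the X chromosome, ended in intron 27 of 30 exons, 8452 nt early. The model of Kif11, which pushes the spindle poles apart, ended in exon 21 of 22, 3883 nt early. The model of Kif15 ran from exon 11 to 30 of 35. Kifc1 and Kifc5b are minus-end directed kinesins with the motor at the carboxyl end. Kifc1 had a 3-exon model from exon 6 to 8 of 11. Kifc5b had a model that stopped in exon 10 of 11, 6330 nt early, and one that ran 240 nt past the RefSeq end. Kif2c, a microtubule depolymerase of the centromere, had 3 CUFF models with 1 shared start 3849 nt downstream, in intron 2, and ends 68 nt early. Kif18b and Kif20b had CUFF models that reached both the first and last RefSeq exon. Kif18a, which aligns chromosomes, the chromokinesin Kif22 and Kif23, of the central spindle, had 1 RefSeq model each. Kif20a, which acts in cytokinesis, had 3 with 3 starts and 1 end.

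All 9 kinesins on the flagellum and cilium list carried NM, and 4 of them had a CUFF model. Kif3a, the motor of anterograde intraflagellar transport with Kif3b, had a 12-exon CUFF model from exon 2 to 13 of 18, which covered 29.7% of the RefSeq bases. Kif17, the homodimeric kinesin-2, had a CUFF model that began 60 nt upstream and ended 440 nt early. Kif19a, which sets cilium length by taking microtubules apart, had a CUFF model that began 77 nt upstream and ended 15 nt late. Kif24, a depolymerase of the centriole, had 2 CUFF models that ran 908 nt past the RefSeq end. Kif27, a paralog of the Hedgehog kinesin Kif7, had no CUFF model under its symbol. Over its exons, however, lay 2 CUFF models without a symbol on the same strand, coded XX, with 18 and 14 exons, that shared 4196 and 3006 nt with it. Kif3b, Kif6, Kif7 and Kif9 had RefSeq models alone, Kif9 with 1 start and 2 ends.

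Of the 5 kinesins on the neuronal list, Kif1a, Kif5c, Kif21b and Kif3c carried NM and Kif5a, a kinesin-1 heavy chain of neurons, carried XX in both of its models. In Kif1a, which moves synaptic vesicle precursors, CUFF models of 36 and 29 exons began 33011 and 41049 nt downstream of the RefSeq start, in intron 10 and exon 17 of a model of 48 exons. The CUFF model of Kif5c, another kinesin-1 heavy chain, ran from exon 10 to 25 of 26 and covered 29.8% of the RefSeq bases. In Kif21b, 1 CUFF model reached exon 1 and exon 35 of 35, and the other ran from exon 2 to an end in intron 21, 17458 nt early. In these kinesins the motor domain is at the amino end, so models that begin at later exons lack the first exons of that end. Kif3c had its RefSeq model alone.

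Of the 15 other kinesin genes, 13 carried NM and 11 had a CUFF model. Kif13a, a kinesin of endosomes, had CUFF models on either side of intron 36: one of 36 exons ended in it, 11873 nt before the RefSeq end, and one of 2 exons began in it and ran through the last exons, with 7937 nt between them. In Kif21a a 35-exon model ended in intron 35 and a 5-exon model began in intron 32, and they shared 454 nt. Kif1c ended in intron 18 of 23 exons, 12816 nt early, in a model that covered 30.1% of the RefSeq bases. The CUFF model of Kif26b had 2 exons, was coded XX, and stopped in intron 2 with 12.2% of the RefSeq bases, the lowest share of the 60 motor models. Kif2a had models that began 525 nt upstream and 332 nt downstream. In Kif13b, Kif16b, Kif1b and Kifc3 the CUFF model covered between 97.5% and 99.2% of the RefSeq bases. Kif5b and Kif26a had 1 RefSeq model each, coded NM, and Kif12 and Kifc2 had 1 each, coded XX.

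A pair of kinesin genes had no intron. Kif2b had a CUFF model of 2129 nt that began 23 nt upstream and ended 164 nt early, against a RefSeq model of 2270 nt. Kif4-ps on chromosome 12 had a CUFF model of 4178 nt that ran 86 nt further upstream and 427 nt further downstream than a RefSeq model of 3665 nt. The gene of that name without the suffix, Kif4, had 30 exons and 4712 nt. Both models of Kif4-ps were coded NM, although its accession is of the NR kind.

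Heavy chains set the axonemal dyneins apart in length. The longest model of an axonemal dynein gene had a median of 73 exons (quartiles 18.25 and 79.5, range 6 to 93) and 12761.5 nt (4722.75 and 14211.2), over 16 genes. Kinesins had a median of 20.5 exons (16 and 28.25, range 1 to 48) and 4765.5 nt (3450.75 and 6738), over 42 genes. Cytoplasmic dyneins had 17 exons (13 and 48, range 13 to 89) and 2751 nt (2346.5 and 9302.5), over 7 genes. All genes with a RefSeq-derived model had a median of 6 exons and 2359 nt. Each dynein class was split in length: the 12 dynein heavy chains with a RefSeq model had 66 to 93 exons, and no other motor gene had more than 48. The longest models were those of Dnahc5 (15616 nt), Dnahc17 (14889 nt), Dnahc8 (14731 nt), Dnahc2 (14629 nt) and Dync1h1 (14398 nt). The shortest of the longest models were those of Dync2li1 (1327 nt), Dnalc4 (1480 nt), Dync1li1 (2035 nt), Kif22 (2064 nt) and Dnali1 (2086 nt). The 12 heavy chains were among the 69 genes of the whole table with at least 66 exons. Dnahc8, with 93, ranked 16 of 22426 genes by exon number, and Dync2h1, with 89, ranked 20.

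**Figure D2:**
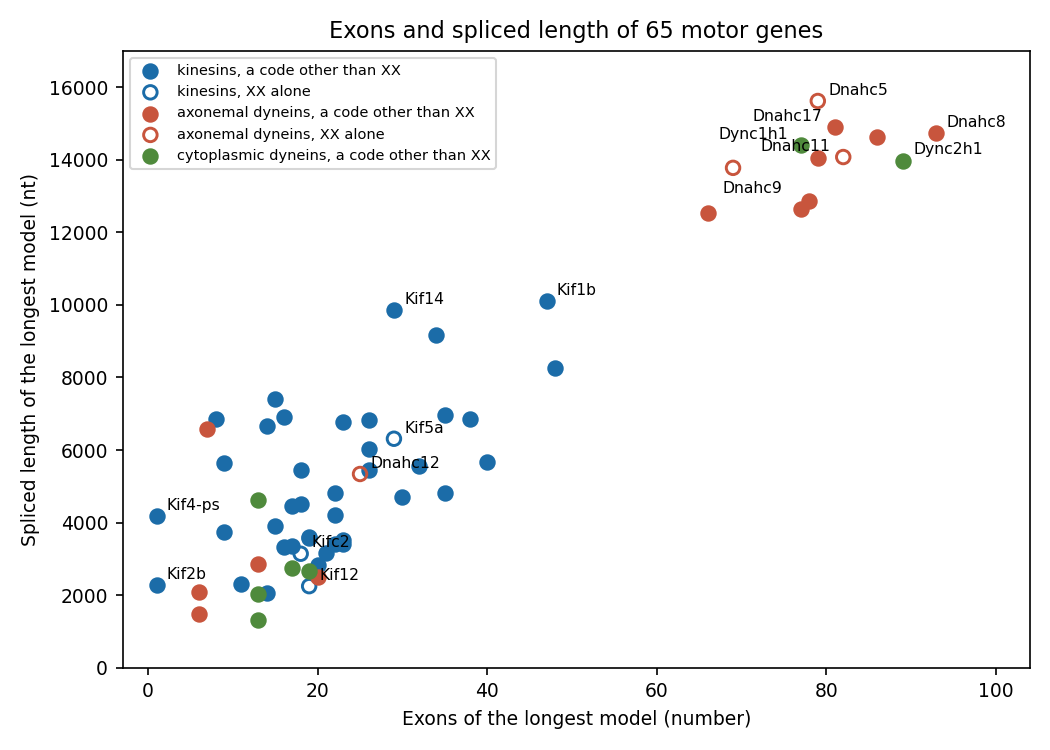
Exons (number) and spliced length (nt) of the longest model of each of the 65 motor genes, coloured by class, with open circles for genes with XX alone. The heavy chains with a RefSeq model form a group at 66 to 93 exons that holds both codes, and Dnahc12, with 25 exons and 5340 nt, lies among the kinesins.

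Starts and ends were counted as distinct when more than 50 nt apart. In the 10 axonemal dynein genes with at least 2 models, 10 had more than 1 start and 3 more than 1 end. This compares with 69.3% and 59.8% of the 8633 genes with a RefSeq-derived model and at least 2 models. Dnahc12 is counted among both the 10 and the 3, although it has no RefSeq-derived model and its 2 CUFF models lie 100190 nt apart. Of 30 kinesin genes with at least 2 models, 23 had more than 1 start and 26 more than 1 end, and of 6 cytoplasmic dynein genes, 4 and 5 had. The axonemal dyneins had a mean of 2.4 starts and 1.4 ends, the kinesins 1.93 and 2, the cytoplasmic dyneins 1.67 and 1.83, and all genes 1.90 and 1.70. Starts outnumbered ends in 7 of 10 axonemal dyneins, 7 of 30 kinesins and 0 of 6 cytoplasmic dyneins, against 32.9% of all genes, and ends outnumbered starts in 1 of 10, 9 of 30 and 1 of 6, against 19.2%. Among RefSeq-derived models alone, 3 motor genes had more than 1 start and 3 more than 1 end, so nearly all of these counts came from CUFF models.

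**Figure D3:**
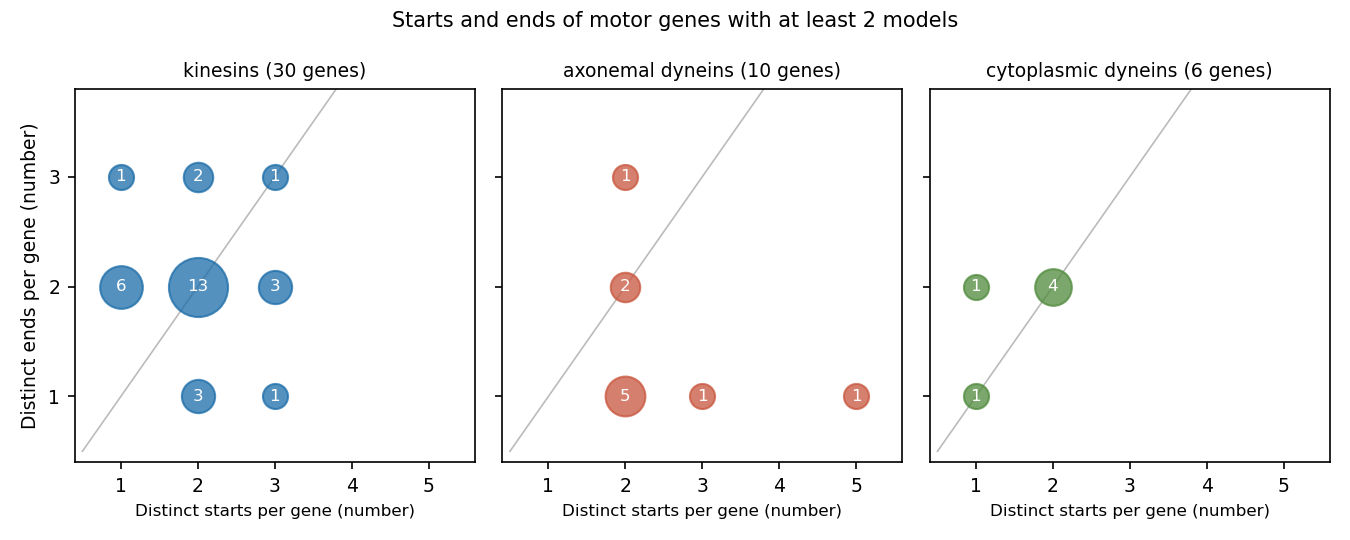
Distinct starts and distinct ends per gene (numbers) for motor genes with at least 2 models, by class; the number in each circle is the number of genes at that point and the line marks equal numbers. Of the axonemal dyneins, 7 of 10 lie below the line, with more starts than ends, and of the kinesins, 9 of 30 lie above it.

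The CUFF models were then set against the RefSeq-derived model of the same gene that shared most exonic bases. This was possible for 60 of 62 motor models, all but those of Dnahc12, and for 8393 models of all genes. An internal start, more than 50 nt downstream of the RefSeq start, was found in 9 of 16 axonemal dynein models, 13 of 39 kinesin models and 1 of 5 cytoplasmic dynein models, against 40.8% of all. A start within a RefSeq intron was found in 8 of 16, 10 of 39 and 1 of 5, against 38%. An early end, more than 50 nt before the RefSeq end, was found in 3 of 16, 26 of 39 and 5 of 5, against 45.6%. All 9 axonemal models with an internal start kept the RefSeq end to within 50 nt, whereas 12 of the 13 such kinesin models also ended early. Of those 12, 6 ended by 68 to 125 nt early, among them 3 Kif2c models with the same start and end. Over all genes, 1340 of the 3424 models with an internal start also ended early. With a tolerance of 500 nt, chosen after seeing the data, 6 kinesin models and 0 axonemal models had both an internal start and an early end. The count over all genes at that tolerance is not given. An upstream start was found in 6 of 16, 15 of 39 and 2 of 5 models, against 33.4%, and a late end in 0 of 16, 6 of 39 and 0 of 5, against 24.3%. These shares are of few models, several of them from 1 gene: 4 of the 9 axonemal models with an internal start came from Dnahc9. No test was made between the classes.

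**Figure D4:**
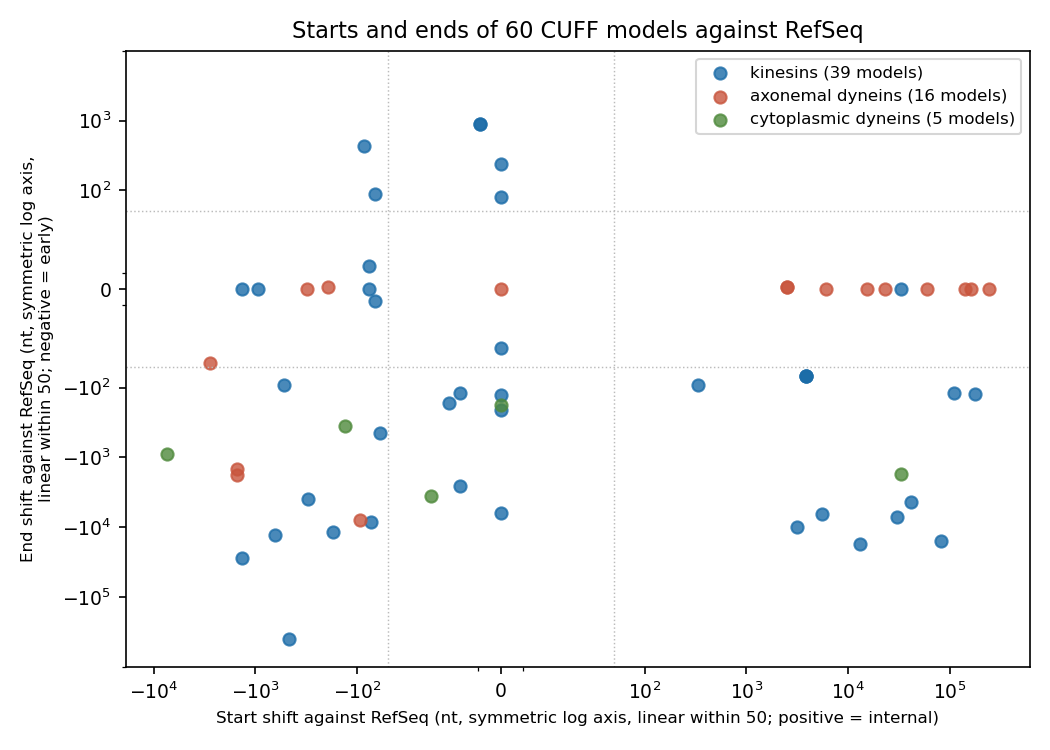
Start shift (horizontal, nt) and end shift (vertical, nt) of 60 CUFF models against the RefSeq model of the same gene, on symmetric log axes that are linear within 50 nt; dotted lines mark 50 nt. The 9 axonemal dynein models at the right lie on the zero line of the end shift, and 12 of 13 kinesin models at the right lie below the lower dotted line.

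The early ends of kinesin models lay in an intron in 10 of 26 cases, in the last RefSeq exon in 12 and in an earlier exon in 4. Over all genes, 28.6% of 3826 early ends lay in an intron and 63.3% in the last exon. The 10 kinesin models that stopped in an intron belonged to Kif13a, Kif14, Kif15, Kif1a, Kif1c, Kif21a, Kif21b, Kif26b, Kif4 and Kifc1. Taken over all motor models, 13 of 60 ended in an intron, against 13% of all models.

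A model was called truncated when it covered under 90% of the RefSeq exonic bases. This held for 23 of 39 kinesin models, 7 of 16 axonemal dynein models and 4 of 5 cytoplasmic dynein models, 34 of 60 together, against 62% of all models. The motor share was thus near that of all genes. Of the 34, 11 lacked the first RefSeq exon but reached the last, 10 lacked the last but reached the first, 7 lacked both and 6 reached both. Over all genes, 48.9% of truncated models lacked the first exon alone, 20.4% the last alone and 7.9% both. In axonemal dyneins 4 of 7 lacked the first exon alone and in kinesins 7 of 23, while 8 of 23 kinesin models lacked the last alone and 6 lacked both. No intron lay outside the RefSeq set in 20 of 39 kinesin models, 7 of 16 axonemal and 2 of 5 cytoplasmic dynein models, against 40% of all. Models without any intron meet this by definition and are counted in these shares, among the kinesins those of Kif2b and Kif4-ps.

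**Figure D5:**
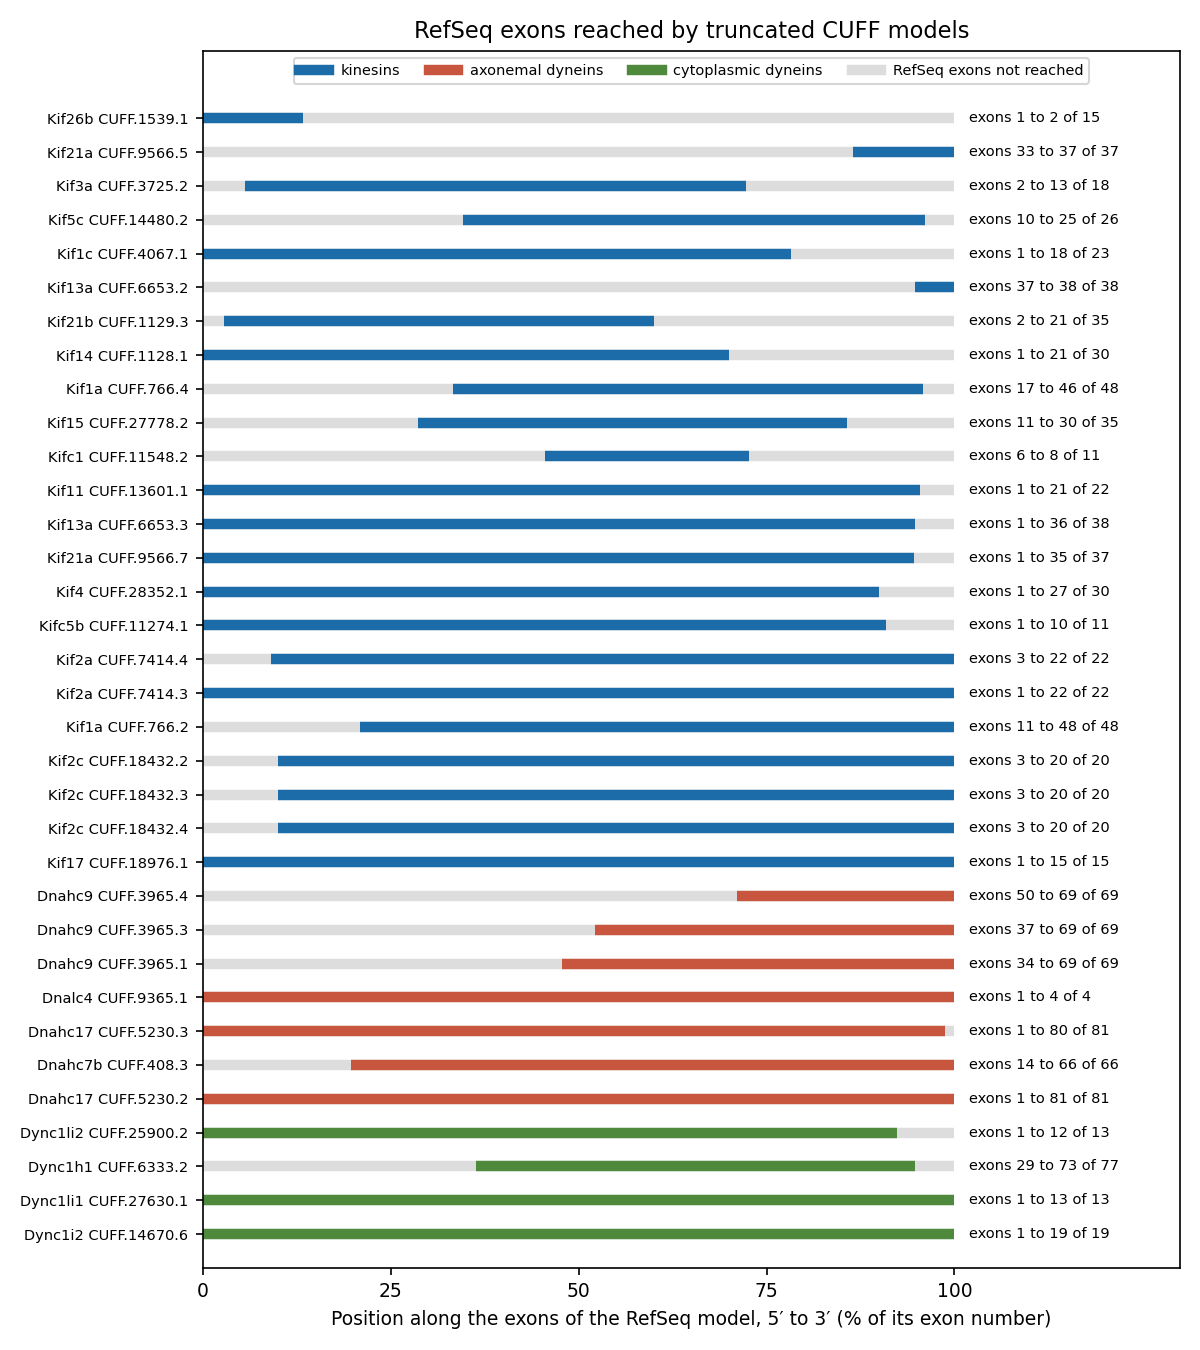
The RefSeq exons reached by each of the 34 truncated CUFF models, from the first to the last exon that shares bases, as percent of the exon number of the RefSeq model from 5′ to 3′, with the exon numbers at the right. Models of Dnahc9 reach the last exon from internal starts, and those of Kif14, Kif1c and Kif4 reach from exon 1 to an early end.

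At least 1 CUFF model was found for 27 of 42 kinesins, 10 of 16 axonemal dyneins and 5 of 7 cytoplasmic dyneins, against 28.5% of all genes. By exon number, it was 4 of 7 motor genes (57.1%) and 20.2% of other genes with fewer than 10 exons, and 10 of 21 (47.6%) and 41.1% with 10 to 19. It was 15 of 21 (71.4%) and 50.5% with 20 to 39 exons, and 12 of 15 (80%) and 54.7% with at least 40. Dnahc12, which had CUFF models but no RefSeq-derived model, is again in none of these groups. The CUFF models themselves had a code other than XX in 36 of 39 kinesin models, 11 of 18 axonemal and 5 of 5 cytoplasmic dynein models, against 75.5% of all CUFF models. The 7 axonemal CUFF models coded XX were those of Dnahc5, Dnahc9 and Dnahc12.

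A head-to-head partner was a transcript on the other strand that began 1 to 500 bp upstream of at least 1 model of the gene. It was found for 12 of 65 motor genes (18.5%, interval 9.92 to 30.0%), against 11.3% of all genes, a share within that interval. For 9 of the 12 no exonic base of the pair overlapped in any model, and 9.56% of all genes had such a partner. The nearest starts were 42 bp apart for Kif4 and Pdzd11 and 85 bp for Dync2h1 and Dcun1d5, both from the upstream start of a CUFF model of the motor gene. They were 66 bp apart for Dnaic1 and 2310028H24Rik, 81 bp for Kif15 and 1110059G10Rik and 264 bp for Kif9 and Klhl18, from RefSeq starts, and 291 bp for Kif24 and Nudt2, from a CUFF start. Dnahc10, Dync1h1 and Kifc3 faced a CUFF model without a symbol, at 6, 103 and 119 bp, and other models of Kifc3 began further upstream, beyond that partner.

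The remaining 3 genes were apart from their partner by some models and overlapped it by others. The RefSeq start of Kif1c lay 393 bp from Inca1, whereas its CUFF model began within Inca1, and the pair shared 236 exonic nt. The RefSeq start of Kif2a lay 456 bp from 3830408C21Rik, and 1 CUFF model overlapped that transcript by 70 nt. In Kif20a, 2 RefSeq models began 126 and 223 bp from Brd8, and the other began within Brd8 and shared 187 nt with it. Exonic overlap with a transcript of the other strand was found for 11 of 65 motor genes, these 3 included, against 13.2% of all genes. It was longest for Kif3c with 1110002L01Rik (2612 nt), Kif20a with Cdc23 (1115 nt), Kif7 with 9330171B17Rik (841 nt), Kif22 with a CUFF model (780 nt) and Dnahc11 with Cdca7l (642 nt).

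Reference promoters were matched for 54 of the 65 motor genes, in 59 windows, and searched on both strands for 5 motifs. The core of the RFX site, GTTGCC, a motif of the factors that drive ciliary genes, was in 18 of 59 motor windows (30.5%) and 12.5% of all 32851 windows. By gene it was in 16 of 54 motor genes and 14.1% of 27025 genes. It stood in 11 of 37 kinesin windows (interval 15.9 to 47.0%), 3 of 16 axonemal (4.05 to 45.6%) and 4 of 6 cytoplasmic dynein windows (22.3 to 95.7%). The 16 genes were Dnahc10, Dnahc7b, Dnaic2, Dync1i1, Dync1i2, Dync2h1, Kif16b, Kif17, Kif18a, Kif1a, Kif23, Kif24, Kif2a, Kif3a, Kif3c and Kif9. They thus included the spindle kinesins Kif18a and Kif23 and the neuronal kinesins Kif1a and Kif3c. The MYB core CCGTTA was in 2 of 59 motor windows and 2.76% of all, but both are overlapping windows of Kif9 with the same site, and by gene it was in 1 of 54 motor genes (1.85%) and 3.15% of all. The CRE core TGACGT was in 6 of 59 windows, against 7.51%, and by gene in 6 of 54, against 8.37%. CCAAT was in 26 of 59 (44.1%), against 37.4%, and by gene in 25 of 54, against 41.1%. TATAAA was in 6 of 59, against 13.6%, and by gene in 5 of 54, against 15.7%. Motor windows were also richer in GC, with a median of 59.7% against 52.7% and a median of 18 CpG dinucleotides against 7. A match is a run of letters, and the part of base composition in these shares was not tested.

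The windows of Kif9, Kif17 and Dnahc10 are shown as examples of axonemal and ciliary motors with several matches, chosen after the matches were seen. The spindle kinesin Kif18a, not shown, had the most matches to the MYB, RFX and CRE letters of any motor window, 4. Kif9 is a kinesin of the central pair of the axoneme. Capitals mark the letters of any of the 5 motifs, on either strand.
Kif9, chr9:110476708-110477007, plus strand: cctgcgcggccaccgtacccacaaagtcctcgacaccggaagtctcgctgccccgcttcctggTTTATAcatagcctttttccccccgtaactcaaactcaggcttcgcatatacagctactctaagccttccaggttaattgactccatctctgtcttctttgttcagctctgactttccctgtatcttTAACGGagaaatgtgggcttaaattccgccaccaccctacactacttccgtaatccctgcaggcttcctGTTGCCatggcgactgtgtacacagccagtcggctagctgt
Kif17, chr4:138262001-138262300, plus strand: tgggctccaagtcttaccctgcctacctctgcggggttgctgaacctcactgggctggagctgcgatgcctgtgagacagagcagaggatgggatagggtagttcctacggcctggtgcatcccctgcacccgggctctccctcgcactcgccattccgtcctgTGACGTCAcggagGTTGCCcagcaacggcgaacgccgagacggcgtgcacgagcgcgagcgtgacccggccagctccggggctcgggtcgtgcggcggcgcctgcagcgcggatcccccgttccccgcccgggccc
Dnahc10, chr5:124724835-124725134, plus strand: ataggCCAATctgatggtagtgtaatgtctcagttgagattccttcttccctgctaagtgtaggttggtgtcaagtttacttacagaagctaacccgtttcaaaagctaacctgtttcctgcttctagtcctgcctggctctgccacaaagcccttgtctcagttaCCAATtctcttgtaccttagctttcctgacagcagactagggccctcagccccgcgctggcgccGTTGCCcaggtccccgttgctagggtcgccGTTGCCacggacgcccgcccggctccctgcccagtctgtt
In Kif9 the first capitals are the TATA letters and the next the MYB letters, both read from the other strand, 187 and 60 bases before the start, and the RFX letters begin 10 bases after it. In Kif17 the overlapping matches to TGACGT on both strands begin 86 and 84 bases before the start and are followed by the RFX letters at 73 bases. In Dnahc10, after a pair of CCAAT boxes, the RFX letters begin 20 bases before and 11 bases after the start. Kif9 and Dnahc10 each began within 500 bp of a transcript on the other strand, as given above.

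Partners of the motors were read by code beside the 62.3% of all genes with a code other than XX, and the 77.2 to 81.7% of other genes with at least 10 exons. Such a code was carried by all 4 kinesin light chains, 9 cytoplasmic dynein light chains, 9 dynactin genes, 14 genes of dynein assembly and docking, 15 genes of intraflagellar transport and 11 spindle checkpoint and kinetochore genes. In the radial spoke and central pair list 10 of 11 carried it. The exception was Rsph4a, a radial spoke head gene known from airway cilia, whereas its paralog Rsph6a, known from testis, had another code. These lists were chosen with codes of the table known.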

How the data were processed

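The deposited table is a BED file of 12 columns without a header, 1 transcript model per line, for the whole series. Its values are positions in bp, exon numbers and exon lengths. The submitters' processing notes name the aligner TopHat2 (2.0.4) and mouse build mm9. How CAGE and PAS-Seq reads set the ends, how the authors assembled, coded and filtered models, and the depth: not given in the sources used. Lengths and positions were computed from the deposited columns, counted from 1, with Python 3.11.15, NumPy 2.4.6 and SciPy 1.17.1, and no model was left out. Symbols were matched to GRCm38.p6 gene tables for names, for promoter windows and for list members under other symbols. Of the motor genes, 65 of 65 matched, 13 under another current symbol. Tolerances were 50 nt for starts and ends, 90% for truncation and 500 bp for head-to-head partners. The comparison of models was tested on simulated models that were runs of whole exons of their parent model. That check did not cover upstream starts, late ends, starts or ends within introns, or introns outside RefSeq. With 1 library per group, no test over samples exists. Any member could be named, with fuller values for the longest and shortest, those with XX alone, with a CUFF model or head-to-head partner or with most models, starts or ends, and the functional lists. The members, lists and rule were chosen with earlier results of these data known.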

Additional observations from a re-analysis of the deposited data

How the results depend on the processing

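No paired analysis was possible because each group had 1 library and the table has no value per library. Of 143 alternative values for 65 results, 111 stayed within 1.5 times the count or within the quartiles of the value given above, and the 32 others follow. The counts of genes with a code other than XX were among those that stayed, with RefSeq-derived models alone and, chosen after seeing the data, without Kif4-ps. With RefSeq-derived models alone, genes with more than 1 start numbered 2 kinesins, 0 axonemal and 1 cytoplasmic dynein, 3 together, and genes with more than 1 end 3, 0 and 0, again 3 together. With a tolerance of 500 nt, upstream starts were found in 5 kinesin, 3 axonemal and 1 cytoplasmic dynein models, 9 together. Early ends were then found in 14 kinesin and 3 cytoplasmic dynein models, 20 together, and late ends in 2 kinesin models, 2 together. Both an internal start and an early end, a tolerance added after seeing the data, were then found in 6 kinesin models, 7 motor models together. Truncation under 75% held for 13 kinesin, 4 axonemal and 2 cytoplasmic dynein models, 19 together, and under 50% for 9, 2 and 1, 12 together. Set against the longest RefSeq model, 2 cytoplasmic dynein models had an internal start. Within 200 bp, 4 kinesins had a head-to-head partner. For the changed counts given so far, the share over all genes at the same setting is not given, so they cannot be compared with all genes. In the last 150 bases before the start, which are fewer letters, 10 of 59 motor windows held GTTGCC (16.9%, against 6.64% of all), 3 TGACGT (5.08%, against 5.15%) and 0 TATAAA (0%, against 7.57%). The causes of these changes were not tested.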

Other observations

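Motor genes lay on most chromosomes, with 9 on chromosome 11, 7 on chromosome 4 and 1 on X, the chromokinesin gene Kif4. The spread of all genes over the chromosomes and the distances between them were not counted, so neither can be compared with all genes. The nearest pairs of motor genes follow. The outer arm intermediate chain Dnaic2 and the cilium kinesin Kif19a were neighbours on the plus strand of chromosome 11, 7425 bp apart. The other outer arm intermediate chain, Dnaic1, lay 104936 bp from the centriole kinesin Kif24 on chromosome 4, on opposite strands. Kif14 and Kif21b lay 288527 bp apart on chromosome 1. The next nearest pair, Dnahc2 and Kif1c, was 1150602 bp apart. Both genes of each of these pairs carried a code other than XX, which 58 of all 65 motor genes (89.2%) did. Kif14 carried it only in a CUFF model. CUFF models without a symbol overlapped the span of the gene on the other strand, sharing no exonic base, in Kif26b (4 models), Kif5c (3 models) and Kifc3 (2 models), each coded XX.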
